A study of Mus musculus with 2 samples.

Results

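B cells were taken as the barcodes with at most 10% mitochondrial UMIs, at least 2 UMIs of Cd79a, at least 1 of Ms4a1, none of Cd3d, Cd3e and Cd3g, and under 20 of C1qa, C1qb and C1qc summed. A UMI, or unique molecular identifier, marks 1 captured RNA molecule. The rule found 401 of the 12514 deposited barcodes, and 398 of them were in the first of the 2 libraries. Cd79a codes for a signalling subunit of the B cell receptor (ENSMUSG00000003379, chromosome 7, 24897381 to 24902197 in GRCm38), and Ms4a1 for CD20, a membrane protein of mature B cells (ENSMUSG00000024673, chromosome 19, 11249675 to 11266241). These counts chose the cells, so they are given below as a description.

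MTC-Q1, an oral cancer line of mouse, was grown under the skin of C57BL/6 mice, and immune cells were taken from the tumours. Per the labels, 1 library came from tumours of MTC-Q1 WT cells and 1 from tumours of MTC-Q1 miR-21 KO cells. Tumours had grown for 2 weeks when cisplatin, a DNA-crosslinking drug, was given at 5 mg/kg to both groups, and cells were isolated 72 h later, so no group was untreated. Dead cells were removed, cells were selected on CD45 with beads, and transcript 3′ ends were sequenced by droplet-based single-cell RNA sequencing. The knockout was in the injected tumour cells, so no gene of the host B cells checks the group labels. The number of animals behind a library, and whether the knockout line is 1 clone, were not stated. A barcode's suffix names its library, but nothing links a suffix to WT or miR-21 KO. Values are therefore given for library 1 and library 2, with no direction between the genotypes. With 1 library per group no test was possible, and every interval is a 95% interval for counting error alone.

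B cells recognise antigen through a membrane immunoglobulin of heavy and light chains that signals through CD79A and CD79B. They take up bound antigen and present its peptides on MHC class II to CD4 T cells, and after help they can switch heavy chain class, form germinal centres and become antibody-secreting plasma cells. Naive B cells of the follicle carry IgM and IgD together and recirculate through lymphoid tissue and blood. In tumours they are known from lymphoid aggregates and from the infiltrate.

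The libraries differed in depth and makeup. Library 1 had 5241 barcodes within the mitochondrial limit, with a median of 7195 UMIs, and library 2 had 7098 with a median of 15363. T-lineage barcodes, called CD3 cells here, were defined by at least 2 UMIs of the CD3 genes, none of Cd79a and Ms4a1 and under 20 C1q UMIs. They made up 62.8% of library 1 and 26.4% of library 2. Macrophage-type barcodes, called C1q cells, had at least 20 C1q UMIs and none of the CD3 genes, Cd79a and Ms4a1, and they made up 5.34% and 23.4%. The libraries shared 8 barcode sequences, and 1 of the 398 B cells of library 1 carried such a sequence.

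B cells were 398 of the 5241 barcodes of library 1, or 7.59% (exact binomial interval 6.89 to 8.34%). In library 2 they were 3 of 7098, or 0.0423% (0.00872 to 0.123%). The intervals do not overlap, but group, animal, dissection and library preparation cannot be told apart as sources of the difference. The lowest total of any deposited barcode was 4166 UMIs in library 1 and 4810 in library 2. The lower quartile of the library 1 B cells was 4485.2 UMIs, under the library 2 limit. What these unlike limits do to the shares was not tested. In the summed counts of all barcodes within the mitochondrial limit, genes outside the rule differed to unequal degrees. Fcmr, the IgM Fc receptor, stood at 69.8 CPM, a gene's UMIs scaled to a common total of 1000000 UMIs, in library 1 and 0.175 CPM in library 2, and Ighd, the IgD heavy chain, at 82.7 and 1.45 CPM. Cd79b stood at 57.9 and 5.12 CPM, Igkc at 851 and 140, and Ighm at 256 and 55.2. Ebf1, a lineage factor of B cells that stromal cells can also express, stood at 158 and 24.7 CPM. Of the 635 library 2 barcodes with Ebf1, 632 were not B cells by the rule. Jchain, which joins IgM and IgA into polymers, went the other way, with 13.5 CPM in library 1 and 24.6 CPM in library 2. Of the 3652 Jchain UMIs behind the library 2 value, 1717 came from 1 barcode outside the rule, on which the direction leans. The same barcode held 10268 of the 20801 Igkc UMIs behind the library 2 value of Igkc.

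The B cells of library 1 were shallow. Their totals ran from 4166 UMIs, the lowest total of any barcode of that library, over a median of 5059.5 to 69952, and together they held 2499612 UMIs. Of the 398 cells, 193 or 48.5% lay under 5000 UMIs, against 17.8% of the 3291 CD3 cells, whose median was 6465 UMIs. The depth plot shows the B cells pressed against the lowest total that the deposited matrix holds, and how many B cells fell under that limit was not tested. A B cell had a median of 1547 detected genes and 4.70% mitochondrial UMIs, and a CD3 cell 1696 genes and 4.01%.

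**Figure D1:**
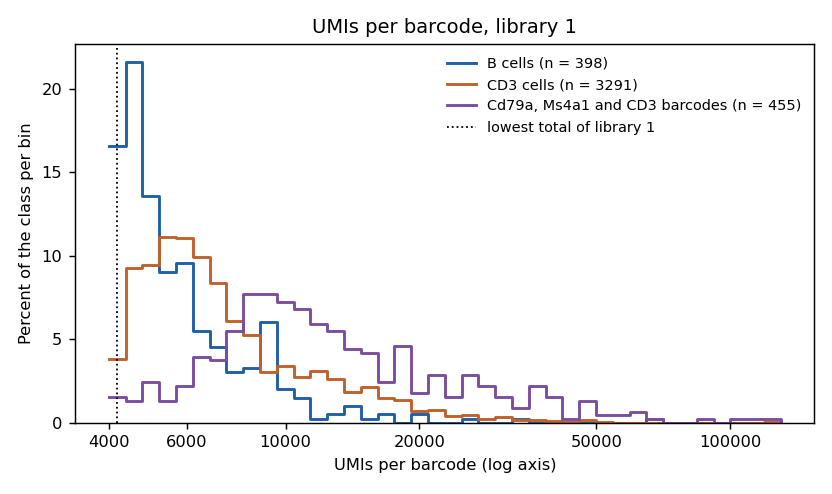
UMIs per barcode (log axis) in library 1, as the percent of each class per bin, for 398 B cells, 3291 CD3 cells and 455 barcodes with Cd79a, Ms4a1 and at least 1 CD3 UMI. The dotted line is the lowest total of the library, 4166 UMIs. B cells peak next to it, CD3 cells at higher totals, and the barcodes with both gene sets higher still, with a median of 11051 UMIs.

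The conditions on CD3 genes weighed most on the number of B cells. In library 1, 879 barcodes met the Cd79a and Ms4a1 limits, and 467 of them had at least 1 CD3 UMI. Leaving out those with 20 or more C1q UMIs, 455 such barcodes remained, 8.68% of the library and more than the B cells themselves. Scrublet, which scores barcodes for likeness to simulated doublets, marked 0.0% of library 1 by its own threshold, so no doublets were removed. It placed 123 of these 455 (27.0%) among the 5% highest scores, and 6 of the 398 B cells. In the 270 barcodes with 10 or more CD3 UMIs the median total was 15121, Pax5 stood at 93.2 CPM and Trbc2, a T cell receptor constant gene, at 953 CPM. The 39 barcodes with exactly 1 CD3 UMI had a median of 5181 UMIs, Pax5 at 330 CPM and Trbc2 at 115 CPM. In the B cells Pax5 stood at 301 CPM and Trbc2 at 11.6 CPM. Barcodes just outside the limit thus held Pax5 at a like CPM, and those far outside at a lower CPM over larger totals. By detection the latter did not lie lower: Pax5 was found in 78.5% of the 270 and 76.1% of the B cells. Ebf1 was found in 99.6% and 98.7%.

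The other limits differed in how many barcodes lay near them. In library 1, 1 B cell had exactly 2 Cd79a UMIs, and 1 barcode just outside had 1. At the Ms4a1 limit, 48 B cells had exactly 1 UMI and 21 barcodes met every other condition with none. In those 21, Pax5 stood at 42.5 CPM and Igkc, the kappa light chain, at 802 CPM, against 221 and 4690 CPM in the 48 inside. By share of barcodes with a UMI the gap was smaller. Pax5 was detected in 52.4% of the 21 and 58.3% of the 48, and Igkc in 76.2% and 97.9%. At the C1q limit 14 barcodes fell outside with 23 to 313 C1q UMIs, and 92 of the 398 B cells had between 1 and 19. A further 10 barcodes were outside by mitochondrial UMIs alone.

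The cells of library 1 carried the defining B cell genes that the rule did not use. Ptprc, which codes for CD45, was detected in 93% of the 398 cells at 573 CPM, against 914 CPM in CD3 cells. Ebf1 and Pax5 are transcription factors that set and hold the B lineage. Ebf1 (ENSMUSG00000057098, chromosome 11) was detected in 98.7% of the cells, with a lowest count of 0, a median of 8 and a highest of 35 UMIs per cell. Pax5 (ENSMUSG00000014030, chromosome 4) was detected in 76.1%, with 0, 2 and 10 UMIs. In CD3 cells the shares were 2.77% and 0.881%. Cd79b was detected in 91.2%. Of the 398 cells, 1 had neither Pax5 nor Ebf1.

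Ratios of summed CPM between B cells and CD3 cells of library 1 were taken over 9136 genes with at least 100 UMIs in both classes together. A gene was called when it was at least 2-fold apart and its exact binomial interval excluded 1.5-fold. B cells were higher for 653 genes (7.15%) and lower for 822 (9%), and the median log2 ratio over all 9136 was 0.02. Counts of called genes in the lists below, against CD3 cells, are to be read beside these shares. The classes were chosen by opposite markers of the same cells, so the calls describe them and test nothing. Of 25 B identity genes, 24 were called higher and none lower, with a median log2 ratio of 5.92. The remaining gene, Ptprcap, which binds CD45 in T and B cells alike, had a log2 ratio of 0.36 with 334 against 260 CPM.

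Among the lineage factors, Ebf1 stood at 1370 CPM (exact Poisson interval 1325 to 1417) against 8.37 in CD3 cells. Pax5 stood at 301 against 1.25 CPM. Pou2af1, a coactivator of immunoglobulin genes, had 86.8 against 4.13 CPM, and Spib, an Ets factor, 71.6 against 1.18. Bach2, which restrains terminal differentiation and is also used by T cells, had 176 against 86.4 CPM, a log2 ratio of 1.02 (0.87 to 1.17). Mef2c was detected in 98.2% of B cells with a median of 6 UMIs and stood at 1093 against 8.19 CPM. Bach2 was thus near the 2-fold limit, while Ebf1, Pax5 and Mef2c lay far beyond it.

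The genes with the largest ratios, leaving out immunoglobulin, T cell receptor and rule genes, mixed known B genes with less known ones. Hs3st1, a heparan sulphate sulphotransferase, led with 77.2 against 0.111 CPM, a log2 ratio of 9.45 (7.88 to 11.74). Fcmr followed with a log2 ratio of 8.95 (8.51 to 9.43), 766 CPM and detection in 94.0% of cells. Next came Vpreb3 at 8.42, the unnamed locus Gm31243 at 8.38 and Pax5 at 7.91. Scd1, a fatty acid desaturase, stood at 438 against 2.95 CPM and was detected in 87.9% of cells. Chst3, a chondroitin sulphotransferase, had a log2 ratio of 7.48, Rasgrp3, a Ras activator, 7.23, and Ly6d 6.98.

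Receptor signalling genes were higher as a group, 21 of 25 with none lower and a median log2 ratio of 3.55, against 7.15% of all genes. Cd79b, the partner of CD79A, had a median of 3 and a highest count of 17 UMIs per cell and stood at 584 against 7.12 CPM. Syk, the kinase that CD79 recruits, stood at 236 against 3.84 CPM. The adaptor Blnk had 131 against 1.88 CPM, the kinase Btk 90.0 against 1.59, and Plcg2, the phospholipase they activate, 79.6 against 2.91. Lyn, a Src kinase of B cells and myeloid cells, had 268 against 13.1 CPM. Brakes on the receptor were high too, with Cd22 at 171 against 1.36 CPM, Siglecg at 132 against 0.959 and Fcgr2b, the inhibitory IgG receptor, at 69.2 against 7.45. Of the 4 genes not called, 3 that T cell receptor signalling uses as well were Bcl10 at 124 against 112 CPM, Vav1 at 36.4 against 30.3 and Pik3cd at 56.4 against 85.5.

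**Figure D2:**
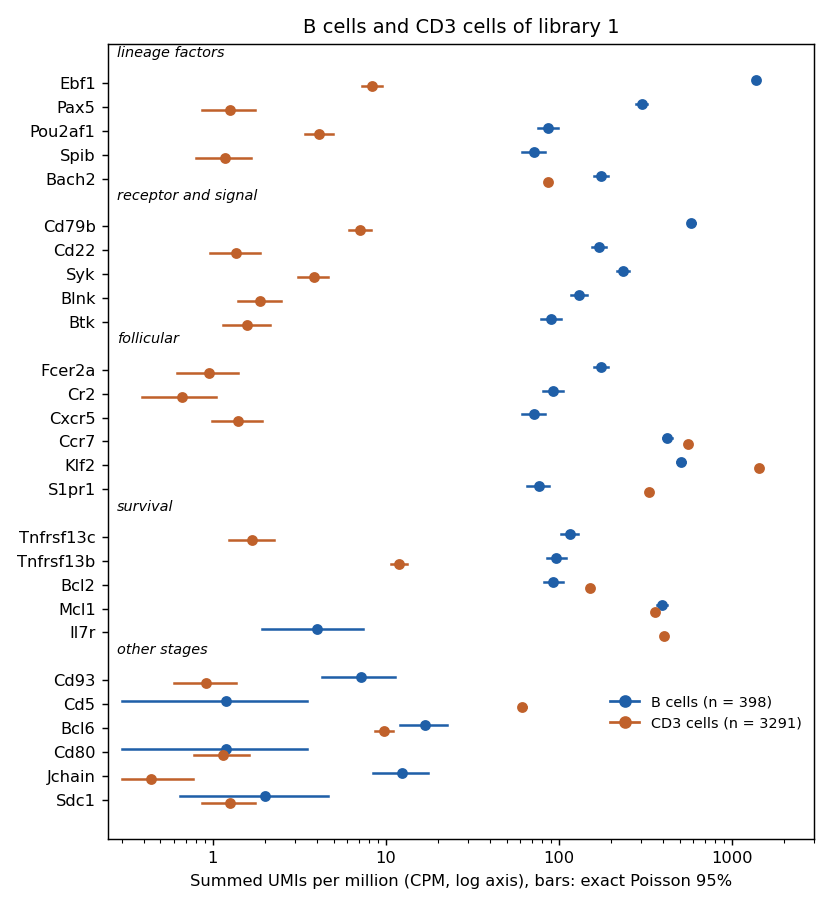
Summed CPM (log axis) of 27 genes by role in 398 B cells (blue) and 3291 CD3 cells (orange) of library 1, with exact Poisson 95% bars. Bars reaching below the axis are drawn to the edge. Lineage genes other than Bach2, receptor genes and the survival receptors Tnfrsf13c and Tnfrsf13b lie far to the right in B cells. Il7r lies far to the left, while Ccr7, Mcl1 and Bcl2 lie close together in both classes.

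Against C1q cells, which hold many of the same kinases, receptor signalling genes were less apart. Of 26 tested, 10 were called higher and 4 lower, beside 11.7% higher and 27.8% lower among 6642 genes, and the median log2 ratio was 0.52. Btk stood at 55.0 CPM in C1q cells and Blnk at 90.8 CPM, and neither was called. Fcgr2b, at 740 CPM in C1q cells, was lower in B cells by a log2 ratio of -3.42.

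Immunoglobulin constant genes were the highest list, with all 7 tested of 12 called higher and a median log2 ratio of 7.41. Igkc had a lowest count of 0, a median of 28 and a highest of 329 UMIs per cell and stood at 5100 CPM. Ighm had 0, 9 and 41 UMIs and 1612 CPM, and Ighd 0, 5 and 26 UMIs and 819 CPM. In CD3 cells Igkc was detected in 12.6% and stood at 20.3 CPM, and Ighd in 3.74% at 4.83 CPM. Ighm did not follow that pattern: it was detected in 54.2% of CD3 cells and stood at 138 CPM there, above Igkc, while in B cells Igkc was above Ighm.

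By the leading light chain, with at least 3 UMIs and more than the other, 381 B cells (95.7%) were kappa and 17 (4.27%, exact binomial interval 2.51 to 6.75%) lambda, and none was left without a call. Among the 17 lambda cells, 11 were led by Iglc1 and 6 by Iglc2 and Iglc3, whose near-identical sequence makes the split between those copies uncertain. The lambda cell with the most lambda UMIs had 77 of them and none of Igkc. Lambda cells had a median of 1 Igkc UMI and a highest of 18, in a cell with 19 lambda UMIs whose call rested on 1 UMI. Kappa cells had Iglc2 or Iglc3 UMIs in 331 of 381 (86.9%) and Iglc1 UMIs in 72 (18.9%), with a median lambda sum of 3 UMIs and a highest of 51. Among CD3 cells 1.94% had Iglc2 or Iglc3 UMIs and 0.577% had Iglc1, both below the shares in kappa cells.

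**Figure D3:**
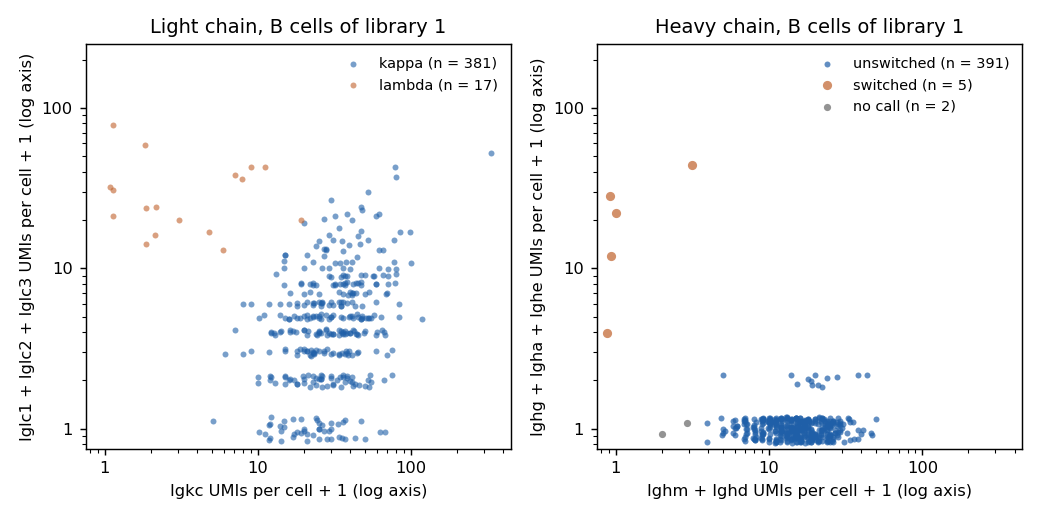
UMIs per cell plus 1 in the 398 B cells of library 1, on log axes with a small random shift so that points do not hide each other. Left, kappa against summed lambda UMIs: most of the 17 lambda cells lie at the upper left, 1 with 18 kappa and 19 lambda UMIs lies among the kappa cells, and most kappa cells have a few lambda UMIs. Right, Ighm plus Ighd against switched heavy chain UMIs: 391 unswitched cells lie along the bottom and 5 switched cells at the left.

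By heavy chain, 391 cells (98.2%) were unswitched and 380 (95.5%) had both Ighm and Ighd. A switched class led in 5 cells (1.26%, 0.409 to 2.91%), and 2 cells had too few heavy chain UMIs for a call. The 5 switched cells had 11 UMIs of Igha in the first, which was also lambda, and 27, 3, 21 and 42 UMIs of Ighg1 in the others. The first 4 had no Ighm or Ighd, and the fifth, which was the deepest B cell with 69952 UMIs, had 1 of each. Jchain was found at 13, 2, 15 and 1 UMIs in the Ighg1 cells and at 0 in the Igha cell. No Fcer2a was found in the first 4, and the fifth had 4 UMIs. Ighg1 stood at 40.4 CPM as a sum over the class, but at 12.3 CPM as a mean over cells, since these few cells carry it. Variable segments were nearly unseen in these 3′ data: 4 cells had 3 or more UMIs of a heavy and 5 of a kappa variable gene.

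At least 1 UMI of a follicular gene was found in 397 of the 398 cells. Of 8 follicular genes, 4 were called higher than in CD3 cells and 2 lower, with a median log2 ratio of 1.57. Fcer2a, the low-affinity IgE receptor CD23 of follicular B cells, was detected in 56.0% with a highest count of 8 UMIs and stood at 176 against 0.959 CPM. Cxcr5, the receptor that leads cells into follicles, stood at 71.6 against 1.4 CPM, Cd55 at 241 against 31.8, and Ighd at 819 against 4.83. Klf2 and S1pr1, which keep lymphocytes recirculating, were lower than in CD3 cells, at 509 against 1436 CPM and 76.4 against 331.

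Of 8 marginal zone genes tested, 5 were called higher and 1 lower. Cr2, the complement receptor CD21 that follicular cells carry at a lower level than marginal zone cells, stood at 92.4 against 0.664 CPM and was detected in 35.4%. Of the 141 cells with Cr2, 91 also had Fcer2a and 50 did not. Mzb1, a chaperone of IgM assembly, stood at 268 against 1.51 CPM. Cd9 was lower, at 14.4 against 34.8 CPM, Cd1d1 stood at 12.4 against 12.7, and S1pr3 was found as 1 UMI in each of 0.503% of the cells. Plac8 was higher at 907 against 251 CPM, yet at 703 CPM without 11 cells rich in macrophage genes, those with 10 or more UMIs over 8 macrophage markers.

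Other stages gave mixed values. Of 7 B1 genes tested none was called higher and 3 were lower, and Cd5, a surface marker of B1a cells and T cells, stood at 1.20 CPM against 61.7 in CD3 cells. Rag1, Rag2, Vpreb1, Igll1 and Dntt, which act in receptor assembly in precursors, were at 0, which allows up to 1.20 CPM at 3 counts over the class. Vpreb3 was high at 114 CPM, and Cd93, a marker of transitional cells, was detected in 4.02% at 7.2 CPM. Of 10 germinal centre genes 3 could be tested and none was higher. S1pr2 was found in 0.754% of cells and Bcl6 in 8.29% at 16.8 against 9.77 CPM. Of 7 plasma cell genes tested, 3 were higher, Irf4, Ell2 and Slamf7, with Irf4 at 62.0 against 10.3 CPM. Sdc1 and Prdm1, which mark secreting cells, were found in 1.26% and 1.51%, and Tnfrsf17 in 0.251%. Of 5 memory genes tested 2 were higher and 1, Nt5e, lower, with a median log2 ratio of 0.81. The higher ones were Cd38, an ectoenzyme that naive mouse B cells carry as well, at 68.8 against 2.51 CPM, and Tnfrsf13b. Nt5e was found in 0.754% of cells and Cd80, not tested, in 0.503%.

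Survival receptors for the cytokine BAFF separated B cells from CD3 cells, and the BCL2 family less so. Tnfrsf13c, the BAFF receptor, was detected in 44.7% and stood at 116 against 1.70 CPM. Tnfrsf13b, or TACI, stood at 96.8 against 11.95 CPM. Bcl2, at 93.2 against 152 CPM, and Mcl1, at 396 against 362, were not called. The death effector Bbc3 was lower at 3.60 against 37.2 CPM, Bcl2l1 at 2.80 against 10.4 and Fas at 4.40 against 14.7. Over the 15 genes tested 3 were higher and 3 lower, and the median log2 ratio was 0.14.

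Homing genes were mixed, with 3 higher, 4 lower and 9 not called of 16. Ccr7, which guides cells to lymphoid tissue, had a median of 2 and a highest count of 15 UMIs per cell, and 424 against 560 CPM in CD3 cells. It was not called, and it was low in C1q cells at 3.36 CPM. Cxcr4 was higher at 434 against 157 CPM and Ccr6 at 44.8 against 2.77. Cxcr6, a receptor of tissue-resident T cells, was lower at 0.4 against 31.6 CPM, and the integrins Itgal and Itgb7 at 41.2 against 92.5 and 55.2 against 120.

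MHC class II genes were abundant in both B cells and C1q cells. In mouse these genes share an upstream module of short boxes, and a match to one of them, the Y box CTGATTGG, was found in the promoter windows of 4 class II genes. The sequences are shown because these 4 genes also differ in how their levels compare between the cell types. Each is the 150 bases before the RefSeq gene start in GRCm38.p6, written in the gene's direction with the match in capitals. H2-Oa is read from the + strand at chr17:34092229-34092378, H2-Aa from the - strand at chr17:34287824-34287973, H2-Eb1 from the + strand at chr17:34305717-34305866 and H2-Eb2 from the + strand at chr17:34325525-34325674.
H2-Aa: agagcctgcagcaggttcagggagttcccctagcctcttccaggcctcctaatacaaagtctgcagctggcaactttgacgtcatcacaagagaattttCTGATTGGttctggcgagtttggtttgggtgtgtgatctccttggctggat
H2-Eb1: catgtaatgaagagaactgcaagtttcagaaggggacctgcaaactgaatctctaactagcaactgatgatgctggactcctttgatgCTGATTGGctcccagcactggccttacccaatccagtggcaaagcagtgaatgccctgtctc
H2-Eb2: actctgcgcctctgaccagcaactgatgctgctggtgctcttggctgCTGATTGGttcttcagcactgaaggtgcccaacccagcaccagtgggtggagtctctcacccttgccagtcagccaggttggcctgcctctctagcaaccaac
H2-Oa: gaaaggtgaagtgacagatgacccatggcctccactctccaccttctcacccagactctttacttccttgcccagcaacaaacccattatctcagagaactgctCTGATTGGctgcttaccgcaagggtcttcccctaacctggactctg

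The match begins 51 bases before the start in H2-Aa, 62 in H2-Eb1, 103 in H2-Eb2 and 46 in H2-Oa. Both strands of windows from 250 bases before to 50 after each start were searched. CTGATTGG was in 4 of 13 windows of the 11 class II list genes found in the RefSeq promoter table (30.8%), and in 4.10% of all 32851 windows. ATTGGCCA, another form of the box that overlaps it in 5 letters, was in none of the 13 and in 1.58% of all. The letters were chosen with the genes in view, so the shares are a description. Of 3 other motifs searched, the EBF motif, the octamer ATTTGCAT and the Ets form AGGAAGTG, only the last was in a class II window, that of Ctss, beside 4.07% of all windows. A match is not a shown binding site.

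Of 15 class II presentation genes, all 15 were called higher than in CD3 cells, with a median log2 ratio of 5.11. Against C1q cells 5 were called higher, 3 lower and 7 neither, with a median of -0.10 beside -0.36 over all genes tested. Among those 6642 genes, 11.7% were higher and 27.8% lower. Summed over the list, B cells held 27739 CPM, C1q cells 39767 and CD3 cells 874. Every B cell had at least 25 UMIs of the list, with a median of 158 and a highest of 1582.

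The classical chains were abundant. H2-Aa, the alpha chain of I-A, had a lowest count of 1, a median of 28 and a highest of 266 UMIs per cell and stood at 4886 CPM, against 110 in CD3 cells and 6119 in C1q cells. H2-Ab1, its beta chain, stood at 3526 CPM against 102 and 5693. H2-Eb1, the beta chain of I-E, stood at 3244 CPM against 80.8 and 5075. Cd74, the invariant chain that guards the peptide groove, had 13, 76 and 620 UMIs per cell and stood at 13425 CPM against 276 and 13865. The C1q cells were above the B cells for all 4 of these genes, by log2 ratios from -0.05 to -0.69, and none was called.

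Genes of peptide loading split the presenting cells. H2-Oa and H2-Ob form DO, which curbs peptide exchange and is known from B cells. H2-Oa was detected in 73.1% of B cells and stood at 264 CPM against 4.35 in C1q cells and 17 in CD3 cells. H2-Ob stood at 331 CPM against 4.75 and 15.6. H2-DMb2, a beta chain of the exchange factor DM, was higher than in C1q cells at 389 against 33.8 CPM, and the other beta chain, H2-DMb1, was lower at 128 against 618. H2-Eb2, a second beta chain gene of I-E type, stood at 60.01 CPM against 0.396 in C1q cells. The proteases went with the C1q cells, with Ctss at 520 against 5683 CPM and Lgmn at 72.4 against 1700. Ciita, the coactivator that switches on class II genes, was detected in 50% of B cells and stood at 132 CPM against 64.5 in C1q cells and 2.03 in CD3 cells. Of the 4 genes with the Y box match, H2-Aa and H2-Eb1 were thus not called between B cells and C1q cells, and H2-Oa and H2-Eb2 were higher in B cells.

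**Figure D4:**
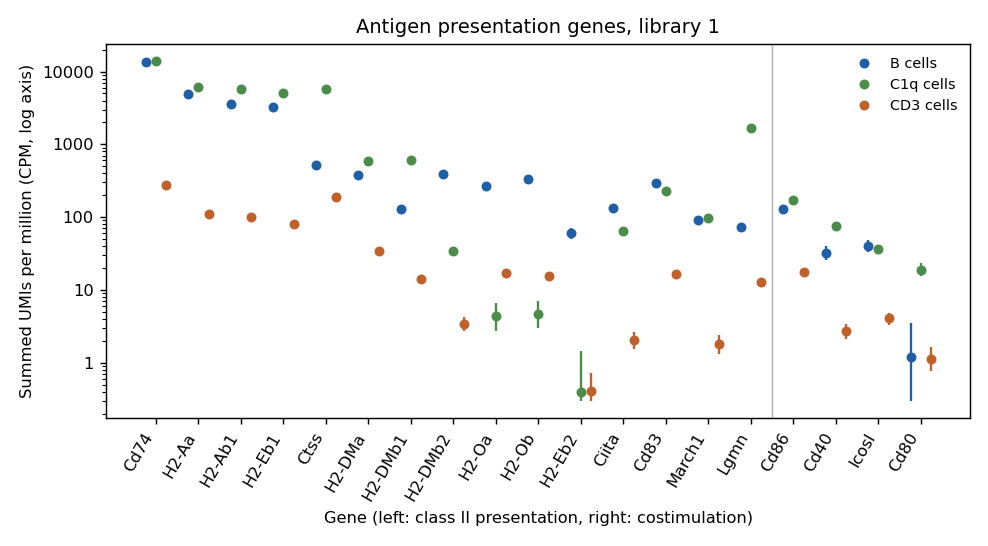
Summed CPM (log axis) of 15 class II presentation genes (left of the line) and 4 costimulation genes in B cells, C1q cells and CD3 cells of library 1, with exact Poisson 95% bars, cut at the axis where they reach below it. B cells and C1q cells lie together for Cd74 and the classical chains, B cells alone are high for H2-DMb2, H2-Oa, H2-Ob and H2-Eb2, and C1q cells are highest for Ctss and Lgmn.

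Costimulation was partial. Cd86, a ligand of CD28, was detected in 48.7% and stood at 130 CPM against 17.6 in CD3 cells and 170 in C1q cells. Cd40, which receives T cell help, stood at 32.0 CPM against 2.69 and 75.1, and Icosl at 40.4 CPM against 4.06 and 36.2. Btla, an inhibitory receptor, stood at 108 CPM against 14.53 and 1.98. Of 9 genes tested against CD3 cells 4 were higher and 1, Vsir, lower at 6.00 against 48.2 CPM. Tnfsf4 was at 0 and Cd274, or PD-L1, stood at 25.2 against 24.4 CPM.

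Innate sensors and Fc receptors made up the remaining higher groups. Of 10 toll-like receptor genes tested 6 were higher than in CD3 cells and none lower. Without the 11 cells rich in macrophage genes 5 were, as Tlr2 went from 15.2 to 2.11 CPM. Ly86 and Cd180, partners in sensing of microbial products on B cells, stood at 230 against 7.64 CPM and 49.6 against 1.18. Unc93b1, which carries nucleic acid sensors to endosomes, stood at 218 against 14.3 CPM, and Tlr7 at 29.6 against 5.35. Tlr9 was found in 2.26% of cells. Against C1q cells none of 13 was higher and 10 were lower, beside 11.7% higher and 27.8% lower among all 6642 genes tested. Of 9 Fc and complement receptor genes 7 were higher than in CD3 cells, among them Fcrl1 at 90.0 against 0.996 CPM and Fcrla at 182 against 0.959. Without those 11 cells 6 were higher and 1 lower, with Fcgr3 no longer called and Fcer1g called lower.

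Of 14 cytokine genes 8 could be tested, and 2 were called higher and none lower, with a summed level of 578 against 501 CPM for the list. Il10 and Il6 were at 0 over the 398 cells, which allows up to 1.20 CPM, and 0.754% of cells with a UMI. Tgfb1 was higher than in CD3 cells at 263 against 108 CPM. Ccl3, a chemokine, was higher at 26.8 against 12.02 CPM, but stood at 13.5 CPM and was not called without the 11 cells rich in macrophage genes. Ltb, or lymphotoxin beta, which organises lymphoid tissue, stood at 172 against 270 CPM and was not called. Regulatory B genes other than Tgfb1 and Fcgr2b were not higher, and Havcr1 was at 0. Among 15 cytokine receptor genes 1 was higher, Il10ra at 56.8 against 7.16 CPM. Lower were 6, among them Il7r at 4 against 408 CPM and Ifngr1 at 62.4 against 237.

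**Figure D5:**
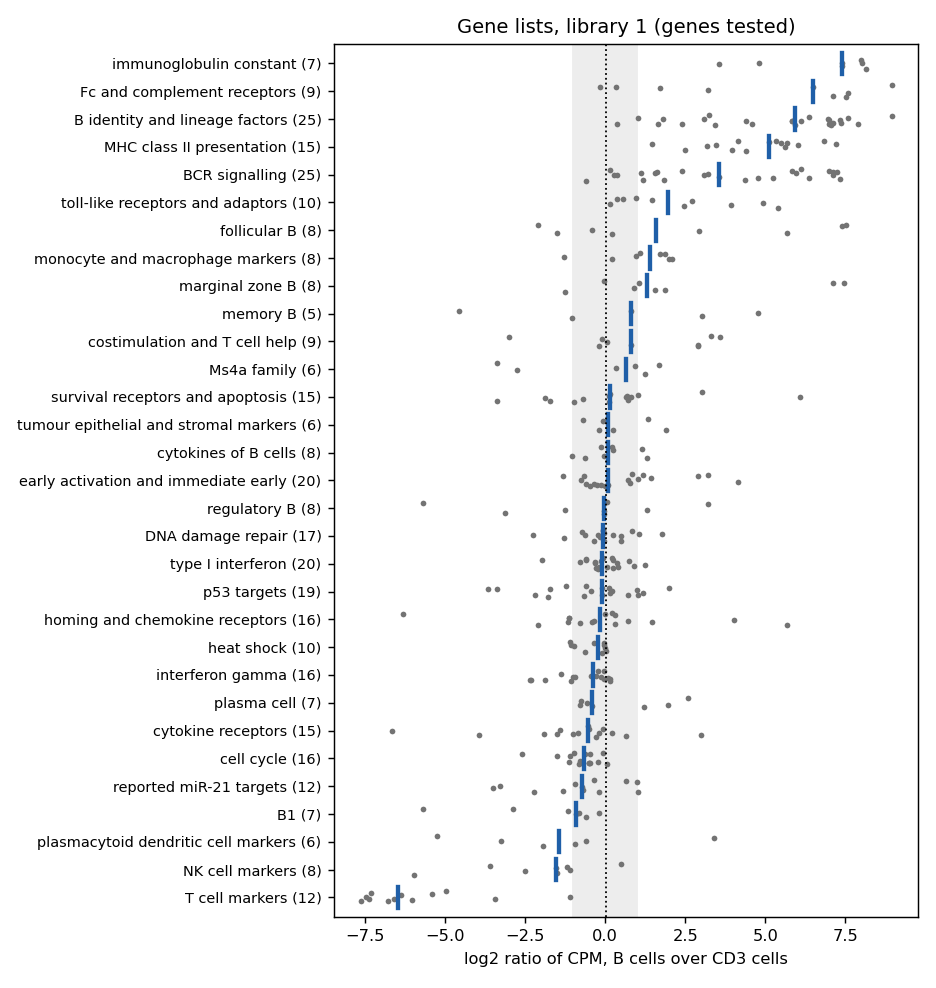
Log2 ratio of CPM, B cells over CD3 cells of library 1, for lists with at least 5 genes tested (number in brackets). Points are genes, blue bars list medians, the grey band is under 2-fold and the dotted line is the median of all 9136 genes, 0.02. Immunoglobulin, Fc receptor, identity and class II lists lie to the right, and T cell markers to the left at a median of -6.48. With all B cells kept, activation, stress and interferon lists have medians inside the grey band.

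Early activation genes were detected unevenly among cells. Of 20 early activation genes 6 were higher than in CD3 cells and 1 lower, with a median log2 ratio of 0.07. Over all genes the shares were 7.15% higher and 9% lower. Egr3, induced by antigen receptor signals, stood at 121 against 13.2 CPM. Nr4a1, a graded reporter of the same signal, had 0, 1 and 15 UMIs per cell as lowest, median and highest and stood at 316 against 140 CPM. Cd83, which steadies surface class II, stood at 291 against 16.6 CPM, and Myc at 58.0 against 21.6. Cd69, which holds lymphocytes in tissue, was detected in 74.9% and stood at 488 against 463 CPM. At least 3 UMIs of Nr4a1 were found in 133 cells, of Cd69 in 158, and of both in 67. Egr3 reached 3 UMIs in 26 cells, and 17 of those also had 3 of Nr4a1. Dissociation of tissue is known to raise immediate early genes, and its part was not tested.

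Most interferon genes were not called against the CD3 cells. Among all genes tested, 7.15% were called higher and 9% lower. Of 20 type I interferon genes 1, Ly6a, was higher and 1, Ifit1, lower, with a median log2 ratio of -0.09 and a summed level of 4009 against 3517 CPM, or 3634 without the 11 cells rich in macrophage genes. Among the 18 not called, Rsad2 had a log2 ratio of 0.91 (0.68 to 1.14) and Stat2 one of 0.73 (0.45 to 1.01). Rsad2 stood at 73.6 CPM with the 11 cells and 23.2 without them, against 39.2 in CD3 cells. Ifi27l2a was detected in 95.7% of B cells and stood at 1820 against 1544 CPM. Isg15 stood at 138 against 209 CPM, and the 11 cells rich in macrophage genes carried much of it: without them it stood at 76.3 CPM and was called lower. Of 16 interferon gamma genes 6 were lower and none higher, among them Socs1 at 19.6 against 98.9 CPM and Igtp at 22 against 110. Without the 11 cells 8 were lower, with Gbp2 and Cxcl9 added, and the median log2 ratio went from -0.38 to -1.03. That of the type I list went from -0.09 to -0.49. The CD3 cells were not filtered in the same way.

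All cells came from mice given cisplatin, so genes of DNA damage have no untreated level to be set against. Of 19 p53 targets 3 were higher than in CD3 cells and 4 lower, with a median log2 ratio of -0.12. Btg2, which is also an immediate early gene, had a median of 6 UMIs per cell and stood at 1075 against 532 CPM. Plk2 stood at 47.6 against 12.1 CPM and Gadd45a at 51.6 against 22.8. Cdkn1a, the p21 cell cycle inhibitor, stood at 61.2 against 53.1 CPM and at 30.4 CPM without the 11 cells rich in macrophage genes. Mdm2 stood at 33.6 against 30.8 CPM. Of 17 repair genes 2 were higher, Parp1 at 127 against 37.0 CPM and Msh6 at 22.4 against 10.7, and Fanci was lower. The shares called higher, 3 of 19 and 2 of 17, lie beside 7.15% over all genes.

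Reported targets of miR-21 were listed because the study removed that microRNA from the tumour cells. Of 12 tested 1 was higher and 3 were lower than in CD3 cells, with a median log2 ratio of -0.71. The shares over all genes were 7.15% higher and 9% lower. Pdcd4 stood at 270 against 449 CPM and Smad7 at 349 against 878, of which Smad7 was called. These are differences between cell types of 1 library and say nothing of the knockout.

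Cycling genes were found at low counts. Counts of 3 or more UMIs over the cycling genes were found in 5 cells (1.26%, 0.409 to 2.91%) and in 136 of 3291 CD3 cells (4.13%). The 5 cells had a median of 20308 UMIs. The share was 8.54% at 1 or more UMIs, and 1.005% at 3 or more after thinning to 4000 UMIs. Of 16 cell cycle genes none was higher and 2 were lower, Top2a at 32.4 against 70.0 CPM and Ube2c at 4.80 against 29.1. These counts lie beside 7.15% higher and 9% lower over all genes. Heat shock genes showed 2 of 10 lower and none higher. Hspa1b had 3 or more UMIs in 21 cells and its near-identical neighbour Hspa1a in 14, with 10 cells in both.

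Variation among the B cells was measured by the Fano factor, the variance over the mean of UMIs, after each cell was thinned to 4000 UMIs. Genes seen in at least 5% of the thinned cells were ranked. Lyz2, lysozyme of macrophages, had the highest value at 62.4 and a range from 0 to 387 UMIs per cell. It was followed by the nuclear RNA Malat1 at 24.7, the actin-severing gelsolin Gsn at 23.8, the protease inhibitor Cst3 at 23 and Gm42418, a locus that overlaps ribosomal RNA, at 20.3. Hspa1b followed at 14.48 and Iglc1 at 12.9. Pure counting gives a Fano factor of 1. Among identity genes Cd22 was at 0.89, Pax5 at 1.57, Fcmr at 1.85, Ebf1 at 2.19, Mef2c at 2.39 and Ly6d at 2.58, and Igkc was at 6.66.

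In 11 cells 10 or more UMIs were found over 8 macrophage markers, from 13 to 415, with a median total of 10651 UMIs. Lyz2 is 1 of the 8, so its fall when they are left out follows from how they were chosen. Without them the Fano factor of Lyz2 was 1.06, and its level went from 425 to 23.2 CPM. That of Rsad2 went from 9.61 to 1.53 and that of Lgals3 from 7.48 to 0.99. The 11 cells kept B cell genes, with 5 to 39 Cd79a UMIs and 11 to 66 of Igkc in each. Over all 398 cells, 5 of 8 macrophage and monocyte genes tested were called higher than in CD3 cells and 1 lower, with a median log2 ratio of 1.4. Without the 11 cells 1 was higher and 4 were lower, with a median of -1.60. Part of that turn is built in, since the cells were removed for such markers and the 31 CD3 cells with 10 or more of their UMIs were kept. Summed over the 10 genes of that list the level was 978 CPM with them, 382 without, 378 in CD3 cells and 28297 in C1q cells. Apoe, the most abundant of the list in C1q cells, was detected in 61.1% of B cells at 390 CPM, and stood at 304 CPM without the 11 cells and 92.6 CPM in CD3 cells.

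Markers of other cell types were found in some of the cells. T cell receptor transcripts were found as 1 or more UMIs in 42 cells (10.6%) and as 3 or more in 3. All 12 T cell genes were lower than in CD3 cells, with a summed level of 164 against 4109 CPM. Of these Cd2, which B cells also carry, was nearest, at 100 against 218 CPM. Natural killer genes summed to 91.2 CPM and were found in 7.54% of cells. Of 6 neutrophil genes 3 were at 0, and the 5 erythroid genes were all at 0. Of 6 stromal and epithelial genes tested 2 were called higher, Dcn at 56.01 against 14.9 CPM and Col3a1 at 39.6 against 15.8. Over the whole list the UMIs sat mostly in 1 cell, which had 392, and no other B cell had 10 or more. Dcn had a highest count of 136 UMIs, in that cell. It was found in 1.26% and had a Fano factor of 29.2, outside the ranking for its few cells. Siglech, which defines plasmacytoid dendritic cells, was at 0, while Tcf4, shared by both lineages, stood at 177 against 16.8 CPM.

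The 3 B cells of library 2 were unlike one another. Their totals were 8587, 7164 and 8945 UMIs, with 8, 18 and 9 UMIs of Cd79a and 1, 6 and 2 of Ms4a1. The first had 5 Ighm, 2 Ighd and 26 Igkc UMIs, together with 23 of Lyz2. The second had no Ighm or Ighd, 4 of Ighg2c and 63 of Igkc, and 1 of Lyz2. The third had 20 Ighm, no Ighd and 51 Igkc UMIs, with 11 of Lyz2 and 10 of C1q genes. Ebf1 was found at 6, 2 and 3 UMIs and Pax5 at 2, 0 and 1. Summed macrophage markers were 36, 1 and 12 UMIs. A further 22 barcodes of library 2 met every condition but had no Ms4a1, with a median of 63547 UMIs.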

How the data were processed

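The authors deposited 1 matrix of raw UMI counts for both libraries, made with Cell Ranger 3.1.0 per the file headers and mm10 per the submitters' processing notes. No source used here gives the cell calling or the counted strand. The rule was applied to these counts. CPM of summed counts carry exact Poisson intervals and shares exact binomial ones, and totals per class set the precision. Ratios needed 100 UMIs over both classes, with a sum of 0 set to 3 counts. The members and gene lists were chosen with earlier results of these data known. Named genes are list members, the 20 highest and 20 lowest log2 ratios among called genes with at least 50 CPM in 1 class, and the 20 highest Fano factors. Scrublet ran at an expected rate of 0.06. Scripts used Python 3.11.15, numpy 2.4.6, scipy 1.17.1, pandas 2.3.3 and scanpy 1.11.5, and were tested on simulated data. Gene positions are from GENCODE in GRCm38 and promoters from RefSeq. Alternatives changed the rule, the ratio limits and the scaling of levels. No comparison of WT with miR-21 KO was made. Some genes are not reported here.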

Additional observations from a re-analysis of the deposited data

How the results depend on the processing

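No paired analysis was possible because each group has 1 library. The number of B cell barcodes in library 1 was 398, and the B cell share of library 1, percent of all kept barcodes, was 7.59%. They were 232 (5.34%) at a mitochondrial limit of 5%, 350 (6.68%) with at least 2 Ms4a1 UMIs, 306 (5.84%) with no C1q UMI, 853 (16.3%) without the CD3 condition and 26 (1.52%) among barcodes of at least 10000 UMIs. The B cell barcodes in library 2, 3 in all, became 25, and the B cell share of library 2, percent of kept barcodes, 0.352%, without the Ms4a1 condition, and both were 0 (0%) with no C1q UMI and at 10000 UMIs. The 653 genes higher and 822 lower than in CD3 cells became 279 and 498 with at least 500 UMIs, and 256 and 474 at a 4-fold limit. Both of these settings test fewer genes or ask more of them. The share of cycling cells was 8.54% at 1 UMI in place of 1.26% at 3. The median log2 ratio of the list follicular B, B cells over CD3 cells, turned from 1.57 to -0.092 with at least 500 UMIs, where fewer of its genes are tested, and that of the macrophage list from 1.4 to -1.60 without the 11 cells rich in macrophage markers, which were chosen by such markers. The median log2 ratio of the list memory B, B cells over CD3 cells, went from 0.81 to -1.05 with at least 500 UMIs. The median log2 ratio of the list Ms4a family, B cells over CD3 cells, went from 0.64 to -0.90 with at least 500 UMIs and to -1.27 without the 11 cells. The median log2 ratio of the list cell cycle, B cells over CD3 cells, went from -0.66 to 0.83 against CD3 cells with no Mki67 or Top2a UMI. Both genes are on that list and the B cells were not filtered by them, so a rise is built in. The median log2 ratio of the list tumour epithelial and stromal markers, B cells over CD3 cells, went from 0.097 to -0.058 with at least 500 UMIs and to -3.04 without the 5% of B cells with the most UMIs. Medians within 0.1 of 0 for cytokines, regulatory B genes, early activation and DNA repair, and those of -0.09 for type I interferon and -0.12 for p53 targets, changed sign under 1 or more settings. Of 293 gene levels, 45 moved by over 1.5 times when taken as a mean over cells, and 30 without those 11 cells. The strip of B cells at the lowest deposited totals limits what can be said of shallower cells.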

Other observations

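The library 1 barcodes with Cd79a, Ms4a1 and CD3 UMIs had a median Scrublet score of 0.140, against 0.0153 in B cells and 0.0592 in CD3 cells. Among library 1 barcodes within the mitochondrial limit, B cells by the rule held 43.6% of the Cd79a UMIs, 48.4% of the Ms4a1 UMIs and 26.4% of the Igkc UMIs.

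A barcode of library 2 outside the rule, singled out after its values were seen, had 22076 UMIs, of which 10268 were Igkc, 3435 Igha and 1717 Jchain. It had 6 UMIs each of Cd79a and Cd79b and none of Ms4a1, Pax5 and Ebf1. All library 2 barcodes within the mitochondrial limit held 20801 Igkc and 3652 Jchain UMIs.

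The B cell of library 1 with the most Dcn UMIs had 16816 UMIs in all, with 15 of Cd79a, 5 of Ms4a1, 17 of Ebf1 and 22 of Igkc. It held 392 UMIs of the stromal and epithelial list, most of those found in the B cells.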
